A study of Ceratina calcarata with 12 samples.

Results

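Ionotropic glutamate receptors are ion channels in the cell membrane that open when glutamate binds to them. In insects they carry fast excitatory signals between neurons and from motor neurons to muscle, and in Drosophila a divergent branch of the family serves smell and taste in sensory neurons. The 10 gene models described here are annotated to the ionotropic glutamate receptor (IGR) signaling pathway in the small carpenter bee Ceratina calcarata, out of 20693 gene models in the deposited tables. They are 10 of the 11 models that the study listed under this Gene Ontology (GO) term among its differentially expressed genes. The listed model that differed in the opposite direction, Ccalc.v2_012034, was left out. The members were therefore chosen by their difference between care and no care in these same libraries, so that difference is given below as a description with no test. Models that carry the term but were not listed by the study were not analysed here, so values just outside its threshold cannot be given.

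RNA was sequenced from heads of newly eclosed adult females, with 3 libraries of care offspring and 3 of no care offspring. Each library was a pool of 3 heads, all from different nests, and the replicates are thus pools rather than single bees. In both groups the mother had provisioned the brood with pollen in the field, and the nests were brought to the laboratory in dead sumac stems (Rhus typhina) and reared there. In care the mother stayed with the nest until the offspring were adult, and in no care (orphaned) she was taken away after provisioning. Whole heads were used, which hold brain, eyes, antennae, muscle, fat body and cuticle. A higher share of reads can come from more cells that express a gene or from more RNA in each cell, and these cannot be told apart in pooled heads. Counts on gene models summed to 26752341 to 31894020 per library. All 10 models had more than 0.18 CPM in more than 3 libraries and were tested among 10763 models. CPM is a count scaled to the total of its library, here after adjustment of the totals by edgeR's TMM method.

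The annotation gives each of the 10 models as a glutamate-gated ion channel and gives no subunit name. Of the 10, 9 were also listed by the study under postsynaptic membrane, the receiving side of a synapse, and under cell junction. Ccalc.v2_014639 was the exception to both. Neither the deposited tables nor the gene table used here ties these models to named receptor subunits, positions or lengths. Levels are therefore not divided by length, and they are compared between groups and not between models.

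All 10 models had higher levels in no care than in care, and in each of them the lowest no care library lay above the highest care library. Such a separation in the same direction was found in 1980 of all 10763 models tested (18.4%). The opposite separation, with all no care libraries below all care libraries, was found in 19.2%. The median log2 fold change of no care over care was 0.85 for the 10, with values from 0.67 to 1.47, and 0 over all models tested. It was above 1 for 4 of the 10 and for 4.29% of all models. The quasi-likelihood test of edgeR, at an adjusted p of 0.01, called 4 of the 10 models higher in no care. These were Ccalc.v2_007607, Ccalc.v2_014986, Ccalc.v2_012509 and Ccalc.v2_016169. Ccalc.v2_014639, with the largest change, was among those not called, as were Ccalc.v2_015925 and Ccalc.v2_016170. Of all models tested the test called 755 (7.01%), of which 400 (3.72% of those tested) were higher in no care and 355 (3.3%) higher in care. At a threshold of 0.05 all 10 were called, against 8.98% of all models. The study's own choice of test, edgeR's exact test, called all 10 at 0.01 (7.25% of all models were called in that direction), and DESeq2 called 9 (8.39%). Nothing is read from these counts, because the study listed the models for this contrast.

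**Figure D1:**
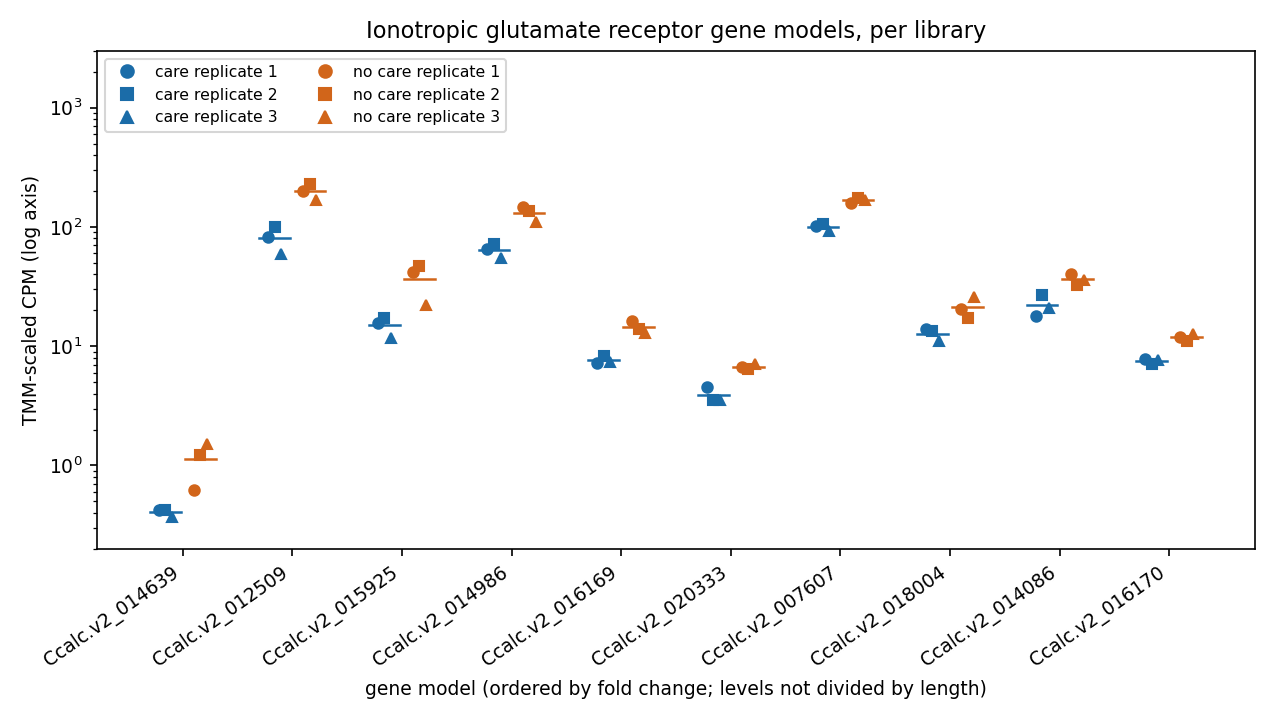
Level of each gene model in each library, in TMM-scaled CPM on a log axis, with care in blue and no care in orange. Symbols mark the replicate and short lines the group means (n = 3 pools each); in all 10 models the 3 no care points lie above the 3 care points.

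Among the 9 models listed under postsynaptic membrane, Ccalc.v2_012509 had the largest difference. Care replicates 1, 2 and 3 had 2544, 2611 and 1928 counts, where no care replicates 1, 2 and 3 had 5884, 6696 and 4976 counts. Every no care library therefore had at least 1.69 times the CPM of the highest care library, while care replicate 3 was the low library of its group. The mean level was 80.5 ± 20.5 CPM with care and 199 ± 29.7 CPM without it (SD, n = 3 pools per group), a log2 fold change of 1.31 (standard error 0.19). Leaving out care replicate 3 lowered it to 1.13, and leaving out care replicate 2 raised it to 1.49.

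Ccalc.v2_015925 had 480, 455 and 386 counts in care and 1216, 1372 and 649 counts in no care. Its no care libraries were uneven, since replicate 3 stood at 22.0 CPM where replicates 1 and 2 stood at 41.7 and 46.7 CPM. The means were 14.9 ± 2.86 CPM with care and 36.8 ± 13.1 CPM without it (SD, n = 3), a log2 fold change of 1.30 (standard error 0.28). The size of this difference moved with the libraries used, and the log2 fold change was 1.57 without no care replicate 3 and 1.09 without no care replicate 2.

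Ccalc.v2_014986 had 2016, 1870 and 1803 counts in care and 4248, 3990 and 3260 counts in no care. The groups were well apart, although no care replicate 3 was again the lowest of its group. The level went from 64.0 ± 8.32 CPM with care to 131 ± 18.2 CPM without it (SD, n = 3), a log2 fold change of 1.03 (standard error 0.13).

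Ccalc.v2_007607 was the most precisely estimated of the 10, with the smallest standard error. It had 3102, 2797 and 3030 counts in care and 4626, 5163 and 4993 counts in no care. Its SD was 7.21% of the mean in care and 5.16% in no care, where counting alone would give 1.83% and 1.42%. The level was 100.1 ± 7.22 CPM with care and 168 ± 8.66 CPM without it (SD, n = 3), a log2 fold change of 0.75 (standard error 0.08). Leaving out any of the 6 libraries gave 0.69 to 0.79.

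Ccalc.v2_014086 had 554, 706 and 689 counts in care and 1170, 961 and 1067 counts in no care. The care libraries differed more among themselves here than the no care libraries did, and care replicate 1 was the lowest. The log2 fold change was 0.72 (standard error 0.16), with 0.60 when care replicate 1 was left out and 0.89 when care replicate 2 was.

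Ccalc.v2_018004 had 425, 350 and 360 counts in care and 594, 504 and 766 counts in no care. No care replicate 3 was the highest library for this model, the reverse of its place in Ccalc.v2_015925. The log2 fold change was 0.73 (standard error 0.17), and without no care replicate 3 it was 0.56, the lowest value that leaving out a library gave for any of the 10.

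Ccalc.v2_020333 had fewer counts, with 139, 93 and 117 in care and 195, 188 and 208 in no care. The no care libraries lay close together, with an SD of 4.84% of the mean, which is below the 7.12% that counting alone would give. The level was 3.88 ± 0.561 CPM with care and 6.71 ± 0.325 CPM without it (SD, n = 3), a log2 fold change of 0.79 (standard error 0.17).

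The model outside the postsynaptic list, Ccalc.v2_014639, had the fewest counts and the largest fold change. It had 13, 11 and 12 counts in care and 18, 36 and 45 counts in no care. The highest care library and the lowest no care library were only 5 counts apart, and the no care libraries spread widely, with an SD of 41.2% of the mean. In care the SD was 7.99% of the mean although counting alone would give 28.9%, so the care libraries lay closer together than counting alone would place them. The level was 0.403 ± 0.0322 CPM with care and 1.12 ± 0.463 CPM without it (SD, n = 3), a log2 fold change of 1.47 (standard error 0.39). Leaving out no care replicate 3 gave 1.19, and leaving out no care replicate 1 gave 1.77.

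**Figure D2:**
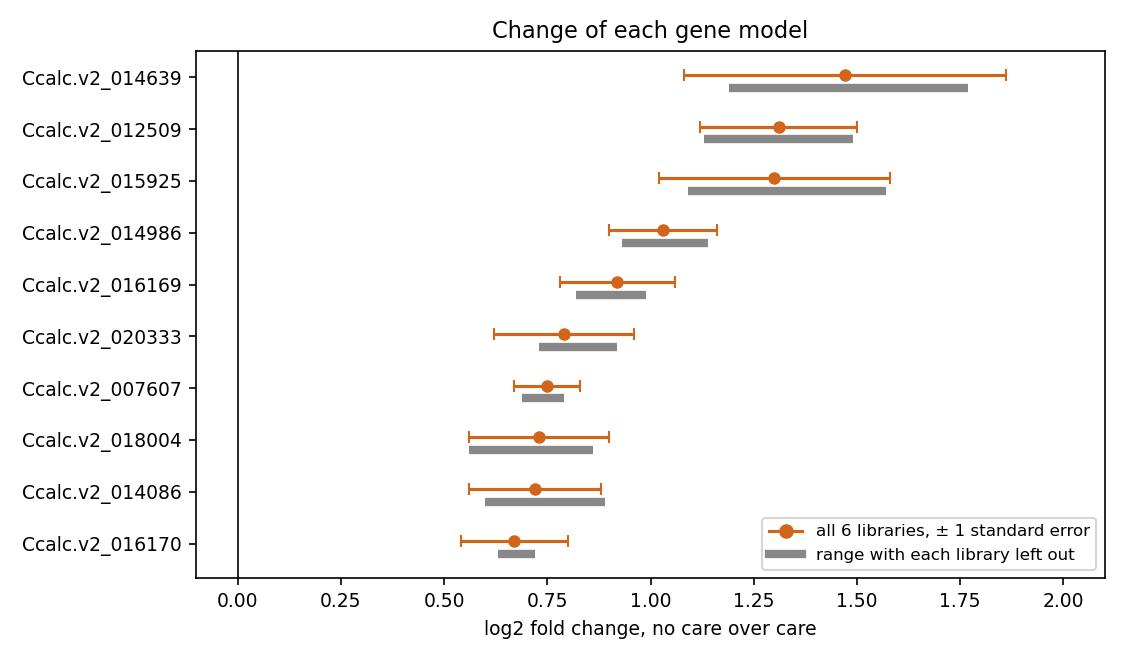
Log2 fold change of no care over care for each gene model (points, ± 1 standard error of the quasi-likelihood fit on all 6 libraries), with the range over the 6 fits that left out 1 library (grey bars). All 10 points lie between 0.67 and 1.47, and each grey bar overlaps that of the next model in the order.

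The order of the 10 by fold change is loose. The standard errors of the 3 largest changes, those of Ccalc.v2_014639, Ccalc.v2_012509 and Ccalc.v2_015925, overlap each other. So do those of the 5 smallest, which run from 0.67 to 0.79. None of the 10 was called in all 6 fits that left out 1 library. At 0.01 the number of models called was 2 without care replicate 1, 4 without care replicate 2 and 1 without care replicate 3. It was 2, 1 and 5 without no care replicates 1, 2 and 3. Calls over all 10763 models moved widely in the same fits, to 275, 592 and 172 without care replicates 1, 2 and 3 and to 350, 327 and 1109 without no care replicates 1, 2 and 3, from 755 with all libraries. Nothing particular to the receptor models is read from these counts. Ccalc.v2_007607 was called in 5 of these 6 fits, Ccalc.v2_014986 in 4 and Ccalc.v2_012509 in 3. The direction was the same for all 10 models in each of the 6 fits. This could hardly be otherwise, because the groups did not overlap in any of the 10.

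Ccalc.v2_016169 and Ccalc.v2_016170 have consecutive numbers and stand on consecutive rows of the deposited tables. In the part of the study's annotation table that was used here, models are numbered along scaffolds, which makes these models likely neighbours, but their positions were not used here. Ccalc.v2_016169 had 222, 217 and 240 counts in care and 475, 408 and 380 counts in no care. Ccalc.v2_016170 had 238, 184 and 250 counts in care and 349, 326 and 373 counts in no care. Both models thus had similar counts in care, and the groups were apart in each.

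The log2 fold change was 0.92 for Ccalc.v2_016169 (standard error 0.14) and 0.67 for Ccalc.v2_016170 (standard error 0.13). The levels were 7.61 ± 0.581 CPM in care and 14.4 ± 1.75 CPM in no care for Ccalc.v2_016169. For Ccalc.v2_016170 they were 7.47 ± 0.392 CPM with care and 11.9 ± 0.772 CPM without it (SD, n = 3 pools each). The split of counts between the pair can be taken within each library, which removes any scaling between libraries. This split also depends on the lengths of the models, which are not known here. It is therefore compared between libraries only and does not give the relative amounts of the pair.

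Ccalc.v2_016169 took 48.3%, 54.1% and 49.0% of the summed counts of the pair in the care libraries, replicate 1 first. The no care libraries gave 57.6%, 55.6% and 50.5% in the same order. The groups overlapped, since no care replicate 3 lay below care replicate 2. The 95% Wilson intervals, which cover counting error only, were 43.7% to 52.8%, 49.2% to 58.9% and 44.6% to 53.4% in the care libraries. In the no care libraries they were 54.2% to 61.0%, 52.0% to 59.1% and 46.9% to 54.0%. The interval of no care replicate 3 overlapped those of all 3 care libraries, and that of care replicate 2 overlapped those of all 3 no care libraries. The mean share was 50.5% ± 3.19 with care and 54.6% ± 3.70 without it (SD, n = 3). This difference of 4.11 percentage points is of the size of the spread between libraries, and it ran from 2.57 to 6.16 percentage points with each library left out.

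**Figure D3:**
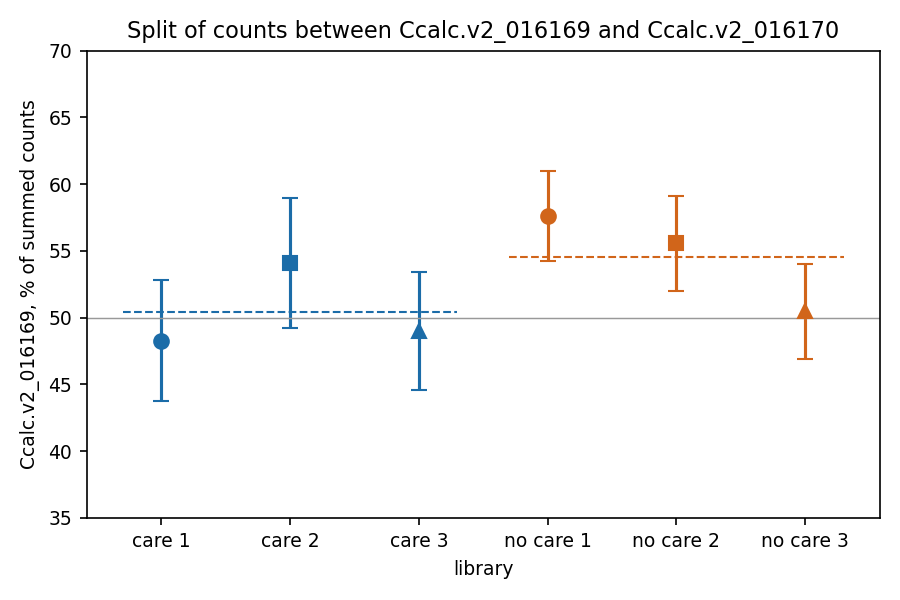
Share of Ccalc.v2_016169 in the summed counts of Ccalc.v2_016169 and Ccalc.v2_016170 in each library, with 95% Wilson intervals; dashed lines are group means and the grey line marks equal counts. The 6 shares lie between 48.3% and 57.6%, and those of care and no care overlap.

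The models numbered just before and after the pair were near the limit of detection. Ccalc.v2_016168, which does not stand beside the pair in the tables, had 2 to 13 counts per library. Ccalc.v2_016171 had 1 to 4 counts and did not pass the filter. The next model in the tables with more counts, Ccalc.v2_016172, was added after its values were seen. It had 617, 601 and 629 counts in care and 867, 845 and 539 counts in no care, so its groups overlapped. The log2 fold change of 0.30 had a standard error of 0.19 (edgeR quasi-likelihood, adjusted p = 0.316). How reads that match several models were counted is not given in the sources used here, which leaves the counts of any near-identical or overlapping models uncertain.

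The 10 models did not share one order of the libraries within a group. In no care, replicate 3 had the highest level of its group for Ccalc.v2_016170, Ccalc.v2_018004, Ccalc.v2_020333 and Ccalc.v2_014639. It had the lowest level for Ccalc.v2_016169, Ccalc.v2_014986, Ccalc.v2_015925 and Ccalc.v2_012509. This library was also the one most often at either end among all models tested, with 41.9% at their highest and 39.8% at their lowest of the group there. In care, replicate 3 was the lowest library for 6 of the 10 models and the highest for none, against 33.7% and 31.0% of all models tested. Care replicate 2 was the highest for 6, and care replicate 1 for the remaining 4.

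**Figure D4:**
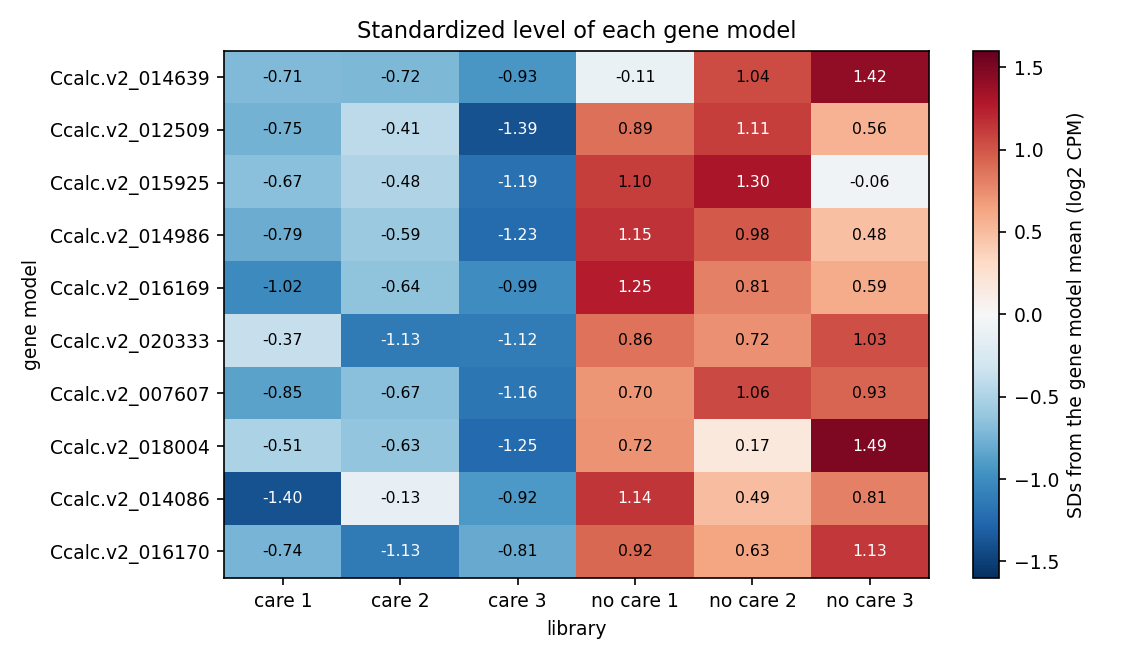
Level of each gene model in each library as the number of SDs from the mean of that model over the 6 libraries (log2 CPM). Care libraries are below and no care libraries above the mean in nearly all cells; the exceptions are Ccalc.v2_014639 in no care replicate 1 (-0.11) and Ccalc.v2_015925 in no care replicate 3 (-0.06).

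The median spread of the 10 between libraries was close to that of all models tested. The biological coefficient of variation, edgeR's estimate of spread between replicates beyond counting, had a median of 0.155 for the 10 and 0.144 over all models tested. It was highest for Ccalc.v2_014639 (0.291, where the trend that edgeR fits over abundance gives 0.292). The lowest value was that of Ccalc.v2_007607 (0.0976, with 0.127 on the trend). Ccalc.v2_015925 and Ccalc.v2_012509 lay above the trend, with 0.242 against 0.149 and 0.176 against 0.126. The value lay below the trend for 6 of the 10, and for 76.1% of all models tested. The trend is thus above the value of most models.

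The 2 models outside the 10 that the study listed under ionotropic glutamate receptor activity had log2 fold changes farther from 0 than any of the 10. Ccalc.v2_012034 had 386, 591 and 579 counts in care and 13, 4 and 9 counts in no care. It is the listed model with the opposite direction, and its log2 fold change was -5.88 (standard error 0.38). Ccalc.v2_007329, which the study listed for receptor activity but not for the signaling pathway, had 40, 42 and 23 counts in care and 206, 135 and 93 counts in no care. It had the direction of the 10, and its log2 fold change was 2.05 (standard error 0.39).

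The model whose pattern over the 6 libraries was most like the mean standardized pattern of the 10 was Ccalc.v2_014799, with a Pearson's r of 0.999 among 8431 models compared. The next was Ccalc.v2_001002, with an r of 0.998, which the study listed under extracellular ligand-gated ion channel activity. These are the highest values of a search over many models and are given as a description. The mean pattern follows the contrast by which the 10 were chosen, so models with even and separate groups score near the top. The 10 themselves had r from 0.857 to 0.992 with it. Ccalc.v2_014799 had 91.8 ± 8.04 CPM in care and 204 ± 3.50 CPM in no care. Ccalc.v2_001002 had 530.0 ± 17.7 CPM with care and 792 ± 13.1 CPM without it (SD, n = 3 pools each).

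Other channel and junction genes in the study's lists show where the 10 stand. These lists are made up of genes the study had itself called from these libraries, so they are no independent evidence of direction. Besides the 10, extracellular ligand-gated ion channel activity lists 10 models. By the quasi-likelihood test at 0.01, 5 of these rose and 3 fell in no care, against 3.72% and 3.3% of all models tested. The median log2 fold change of these 10 others was 0.54. They include Ccalc.v2_012034, which is 1 of the 3 that fell, and Ccalc.v2_007329 and Ccalc.v2_001002, all described above. Examples are Ccalc.v2_011081, which rose by 1.11 on the log2 scale (standard error 0.18), and Ccalc.v2_003131, which fell by 1.25 (standard error 0.16). Of the 11 other models listed under cell junction, 6 rose and 0 fell, against the same shares of all models tested. The remaining 5 ran from -1.07 to 1.47 on the log2 scale with adjusted p above 0.01. The channel and junction lists overlap, so their counts are not separate. Ccalc.v2_002541, Ccalc.v2_009755 and Ccalc.v2_011081 are counted among the models that rose in both.

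Markers of cell types in the head were taken from the Drosophila melanogaster ortholog names in the part of the study's annotation table that was used here. All 14 were detected in each library. The edgeR quasi-likelihood fit called 0 of 8 neuron and synapse markers at 0.01, against 7.01% of all models tested. At 0.05 it called 3 of them higher in no care, against 8.98% of all models tested. Their median log2 fold change was 0.26, and the values lay between -0.35 and 0.56. Their summed level was 5353 to 5441 CPM in care and 5944 to 7050 CPM in no care, with the largest contribution from complexin (cpx), a regulator of transmitter release. The log2 fold change of cpx was 0.56 (standard error 0.12, adjusted p = 0.0163), and the sum was higher in no care only with this gene included. Without cpx, a sum taken after the values were seen, the other 7 markers summed to 2642, 2578 and 2677 CPM in care replicates 1 to 3, and to 2211, 2611 and 2171 CPM in the no care libraries. No care replicates 1 and 3 then lay below all care libraries. Vmat, the vesicular monoamine transporter, had a log2 fold change of 0.45, and CASK and veli, whose products form a scaffold at synapses, had 0.56 and 0.52. In each of these, every no care library lay above every care library. The acetylcholine receptor subunit nAChRalpha4 had -0.35 and Liprin-alpha, a presynaptic scaffold protein, had -0.31. In both, every no care library lay below every care library. Most of the sum without cpx was nAChRalpha4, at 1681, 1576 and 1743 CPM in care and 1147, 1475 and 1310 CPM in no care. That sum therefore follows nAChRalpha4 more than the other markers.

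Of the 3 photoreceptor markers, 2 were called lower in no care at 0.01 and 1 was not, against 3.3% of all models tested. The summed level of the opsins Rh3 and Rh6 and of arrestin Arr1 was 3368 to 4404 CPM in care and 1526 to 2006 CPM in no care, without overlap. By the same edgeR test, Rh6 fell by 1.74 on the log2 scale (adjusted p = 0.00282) and Arr1 fell by 1.54 (adjusted p = 0.000409), while Rh3 had -0.44 (adjusted p = 0.0198). The summed levels of the muscle markers Zasp66 and Mlc2 overlapped between the groups, at 6380 to 7482 CPM in care and 4955 to 6998 CPM in no care. Nearly all of this sum was Mlc2, at 6527, 7413 and 6337 CPM in care and 4910, 5451 and 6955 CPM in no care. The overlap came from no care replicate 3 only, since replicates 1 and 2 lay below all care libraries. Levels of the glial and phagocyte marker drpr overlapped too, at 298 to 366 CPM in care and 331 to 368 CPM in no care. The part of these shifts in the difference of the 10 receptor models was not tested.

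**Figure D5:**
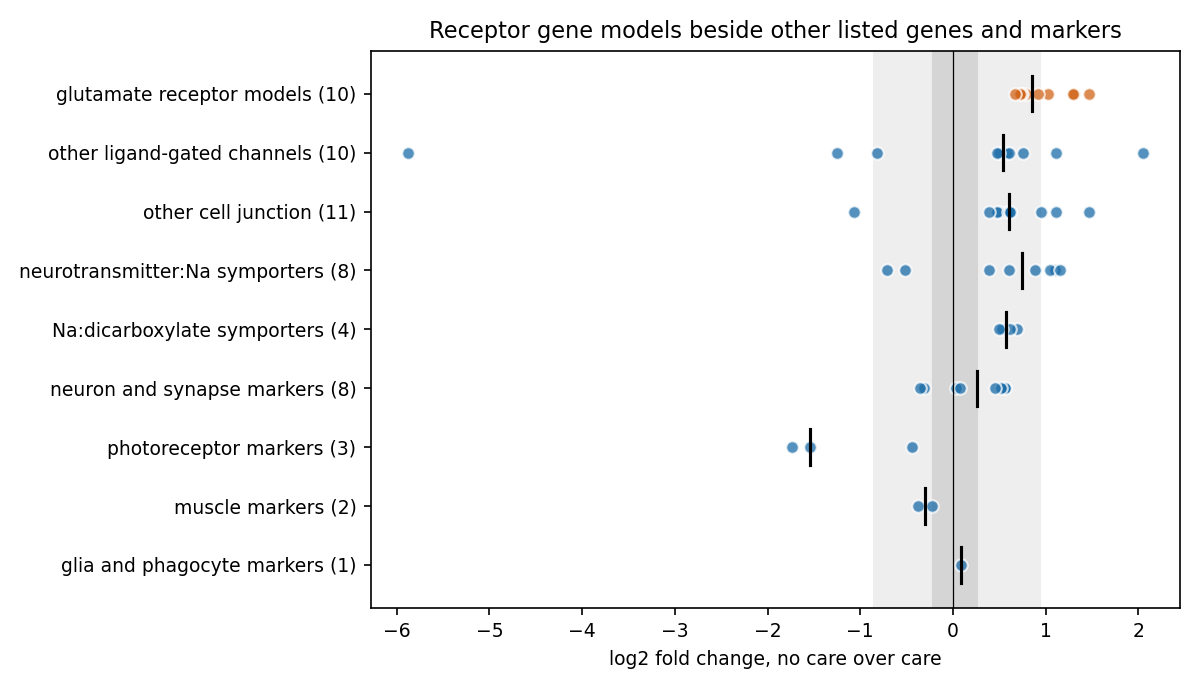
Log2 fold change of no care over care for the 10 receptor models (orange) and for other listed genes and cell type markers (blue), with the median of each list as a black line and the number of models in parentheses. Some models stand in both the channel and the cell junction list. The dark and light grey bands run from the 25th to the 75th and from the 5th to the 95th percentile of all models tested; the receptor models lie between 0.67 and 1.47, the neuron markers between -0.35 and 0.56, and the photoreceptor markers between -1.74 and -0.44.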

How the data were processed

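Reads were trimmed by the authors (Trimmomatic 0.32), aligned with TopHat and counted per gene model with featureCounts. Raw counts were deposited. Libraries were grouped by their titles. Models with more than 0.18 CPM (4.82 to 5.74 counts) in more than 3 libraries were tested. TMM scaling and the quasi-likelihood test came from edgeR 4.0.16 (R 4.3.3). P-values were adjusted by Benjamini-Hochberg over 10763 models, with a threshold of 0.01. They set the difference between the groups against the spread between pools, not between single bees. Standard errors are the log2 fold change divided by the square root of the F statistic. Other settings tried were DESeq2 1.42.0, the exact test in edgeR, further scalings and filters, an adjusted p of 0.05, fits without each library, and a block for the replicate number. The fits were tested on simulated data. The 10 models and the gene lists were chosen with earlier results of these data known. Named are the 10 models, the other listed receptors, the neighbours of the pair, the 2 most alike models (among those whose mean log2 CPM reached 1), and the markers. The examples from the channel list and Ccalc.v2_016172 were chosen after their values were seen. GO lists and ortholog names come from the study. No table used here ties the models to RefSeq genes, so sequences and methylation of these models were not analysed here.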

Additional observations from a re-analysis of the deposited data

How the results depend on the processing

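All 10 models kept a positive log2 fold change under all 14 refits, and each of the 140 values moved by less than 1 SD between libraries. The models were chosen by this contrast in these libraries, and their groups did not overlap. A kept sign was therefore nearly fixed in advance and is no support for the direction. The bar of 1 SD could also hardly be passed. Leaving out 1 of 3 libraries moves a group mean by less than that, and the other refits used the same counts. The small moves are therefore no support for the size of the changes. The number of the 10 called was 4 in the main comparison, 10 with the exact test, 9 with DESeq2 (not Ccalc.v2_014639), 6 with no filter on low counts and 10 at a threshold of 0.05. It ran from 1 to 5 with each library left out. Over all models tested, 755 were called, against 1420 with the exact test, 1630 with DESeq2 and 1818 at 0.05, and 172 to 1109 with each library left out. The median log2 fold change of the 10 ran from 0.81 to 0.94 with each library left out and was 0.82 with scaling by library size alone. That scaling moved the median of all models by -0.03, and the share of called models that were higher in no care was 46.3%, against 53.0% with TMM. No pairing of the libraries by the numbers 1 to 3 was seen: deviations of same-numbered libraries correlated at -0.002, -0.048 and 0.101, and not every library correlated best with its own number. So few correlations cannot exclude a pairing. With the replicate number as a block 371 models were called, and 4 of the 10, where Ccalc.v2_015925 was called in place of Ccalc.v2_016169. The difference in the share of Ccalc.v2_016169 ran from 2.57 to 6.16 percentage points with each library left out. Low counts limit Ccalc.v2_014639 most. No group had the 4 samples needed to look for a single outlying library.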

Other observations

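Models under transporter terms were listed by the study too, from the same libraries, and are known here only by those terms. Neurotransmitter:sodium symporter activity lists 8 models. By edgeR's quasi-likelihood test at 0.01, 4 of these rose and 2 fell in no care, against 3.72% and 3.3% of all models tested. The median log2 fold change of the 8 was 0.74. The largest rise was that of Ccalc.v2_013897, from 246 ± 36.6 CPM in care to 547 ± 11.2 CPM in no care (SD, n = 3 pools). Sodium:dicarboxylate symporter activity, a term that includes glutamate transporters in other animals, lists 4 models. Of these, 3 rose and 0 fell, and the log2 fold changes of the 4 lay between 0.50 and 0.69. Gap junction lists 4 models, of which 1 rose and 0 fell, with values from -1.07 to 1.47. All 4 are also among the cell junction models counted above. These examples were chosen after their values were seen.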
